A study of Mus musculus with 4 samples.

Results

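The genes of the insulin-like growth factor (IGF) axis were examined in mouse mammary tumours with and without a dominant negative c-Jun. The 10 genes were chosen by name, with earlier results of these data known. They were the ligands Igf1 and Igf2, the receptor Igf1r, the adaptor Irs1 and the binding proteins Igfbp2 to Igfbp7. All 27 probe sets whose single gene symbol was one of these were taken, out of 45037 probe sets other than controls, and the 10 genes stand among 18193 with a probe set of a single symbol. Each probe set is a group of short probes read together. Some, among them those named _s_at or _x_at, can match more than a single transcript.

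Expression was measured in 4 tumours on Affymetrix mouse arrays, with 1 array for each tumour. All 4 tumours grew in nude mice from transplanted Eph4 cells, an established mouse mammary epithelial line, and in all of them the cells had been transduced with the fusion oncogene ETV6-NTRK3 (EN). In the 2 Eph_EN tumours the cells carried the fusion without TAM67, while in the 2 Eph_EN_DN tumours they also expressed TAM67, the dominant negative form of the AP-1 subunit c-Jun. The comparison asked how far tumour formation by the fusion passes through AP-1. The promoters of both constructs, the number of clones and the age of the mice are not given in the sources used here. Nude mice lack mature T cells of thymic origin but keep stromal, vascular and myeloid cells, and graft and host are both mouse, so each array reads the RNA of tumour and host cells together. In such bulk tissue, fewer cells of a type and less RNA per cell cannot be told apart.

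IGF ligands bind the IGF receptor, a tyrosine kinase that phosphorylates adaptors such as IRS1 and so engages the PI3K-AKT and RAS-ERK pathways. The secreted binding proteins hold IGFs away from the receptor or store them in the matrix, and proteases release them again. In mammary tissue IGFs act as survival and growth signals from stroma to epithelium, and IGFBP5 is known for its rise during involution of the gland. Earlier work on ETV6-NTRK3 tied its transforming activity to IGF1R and to binding of IRS1.

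Igfbp3 and Igfbp7 fell in the Eph_EN_DN tumours, and no ligand, receptor or adaptor among the 10 genes passed the test. Of the 6 binding protein genes, 5 had both Eph_EN_DN tumours below both Eph_EN tumours, as did 20.0% of all genes tested. The exception was Igfbp5. The ligands, the receptor and the adaptor had positive differences in 4 of 4 genes. Groups did not overlap in 1, Irs1, with Eph_EN_DN the higher, as in 20.2% of all genes tested. Positive differences numbered 2 of 4 without Eph_EN tumour 1 or without Eph_EN_DN tumour 1, and 3 of 4 without Eph_EN tumour 2. Differences are Eph_EN_DN minus Eph_EN in log2(intensity + 16), and each group holds n = 2 tumours. Adjusted p-values are from limma over 13331 genes, each read by its brightest probe set, with a threshold of 0.05.

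At that threshold 2 of the 10 genes were called, both lower, where 0.555% of all genes tested were called, 0.420% lower and 0.135% higher. Since the genes were chosen with earlier results of these data known, shares of all genes are given for scale and not as a test. Without adjustment p was under 0.05 in 4 of the 10 (Igfbp3, Igfbp4 and Igfbp7 lower, Irs1 higher), against 9.80% of all genes. The median difference was -0.56 over the 6 binding protein genes and 0.30 over the other 4 genes, beside 0.019 over all genes tested. The median of these 4 genes was 0.13 without Eph_EN tumour 1, 0.62 without Eph_EN tumour 2, 0.14 without Eph_EN_DN tumour 1 and 0.48 without Eph_EN_DN tumour 2, and that of the binding proteins stayed between -0.60 and -0.52. Groups that did not overlap, with Eph_EN_DN the lower, were found in 20.0% of all genes tested, and with Eph_EN_DN the higher in 20.2%. With arrays scaled by quantiles or centred on their medians, the counts of genes by sign and by overlap were the same in both sets, while the shares of all genes moved to 22.9% lower and 18.3% higher with quantiles and to 29.1% lower and 12.1% higher with median centring. Across these tumours the median difference was -0.50 for fibroblast, -0.57 for macrophage and -0.48 for endothelial markers, whose part in these differences was not tested.

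**Figure D1:**
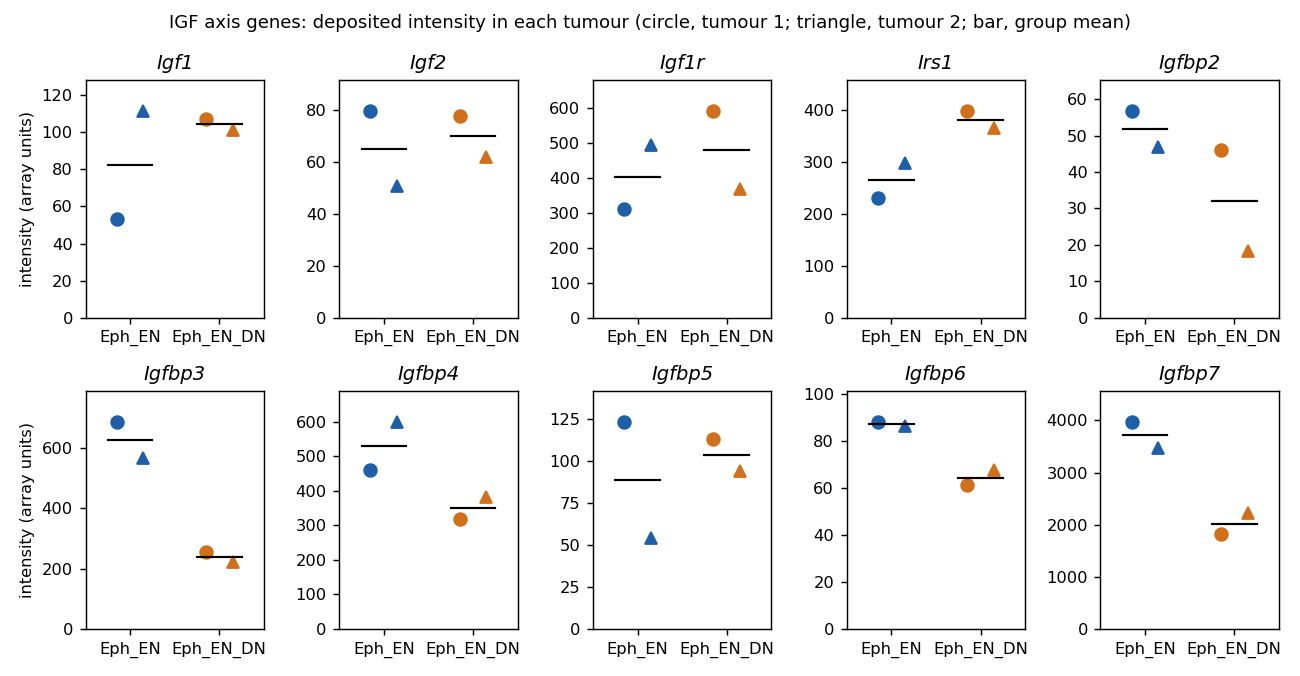
Deposited intensity (vertical axis, linear from 0, array units) of the brightest probe set of each of the 10 genes in each tumour; circles are tumour 1, triangles tumour 2 and bars group means. Igfbp3 stands at 687 and 566 in Eph_EN against 256 and 222 in Eph_EN_DN tumours, and Igf2, Igf1r, Igf1 and Igfbp5 overlap between the groups.

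Igfbp3 encodes the main IGF carrier of serum, which also acts locally in tissues. Its brighter probe set, 1458268_s_at, read 687 and 566 units in Eph_EN tumours 1 and 2 and 256 and 222 in Eph_EN_DN tumours 1 and 2. Both Eph_EN_DN tumours were thus below both Eph_EN tumours, and the Eph_EN mean of 626 ± 85.4 units (SD, n = 2) was 2.62 times the Eph_EN_DN mean of 239 ± 24.0. The difference was -1.33 ± 0.22 (SE, adjusted p = 0.0092, limma). The other probe set, 1423062_at, read 429 and 536 against 244 and 218 units. It too showed no overlap, with a difference of -1.01 ± 0.21, and had adjusted p = 0.0860 when limma was run on all 27022 kept probe sets separately. The call of the gene was lost in 4 of 15 alternatives, among them those without Eph_EN_DN tumour 1 (-1.42, adjusted p = 0.0597) or 2 (-1.23, adjusted p = 0.205), and without the intensity trend in limma's variance model (adjusted p = 0.178). Over the 15, adjusted p ran from 2.5e-04 to 0.205 and the difference from -1.46 to -1.17.

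Igfbp7 encodes a low-affinity member of the family that is deposited around vessels and in the stromal matrix. Its probe set 1423584_at read 3967 and 3471 units in the Eph_EN tumours and 1816 and 2227 in the Eph_EN_DN tumours. The groups did not overlap, with means of 3719 ± 351 and 2022 ± 290.3 (SD, n = 2), a ratio of 1.84. The difference was -0.88 ± 0.18 (SE, adjusted p = 0.0354, limma). Its other probe sets were dim, near the array medians of 35.6 to 40.8 units. Of these, 1423585_at read 55.7 and 44.9 against 41.1 and 37.2 units, without overlap and with a difference of -0.26. The other, 1437804_at, read 46.9 and 43.4 against 45.8 and 31.9 units, where the groups overlapped, and differed by -0.17. With the 3 probe sets averaged, the gene's difference was -0.44 and its call was lost (adjusted p = 0.455). The call was lost in 8 of 15 alternatives, among the others those without Eph_EN tumour 1 (-0.78, adjusted p = 0.0730), without Eph_EN_DN tumour 1 (-0.73, adjusted p = 0.337) or 2 (-1.02, adjusted p = 0.148), with quantile normalization (-0.73, adjusted p = 0.124), with no filter on dim probe sets (adjusted p = 0.1002) and without the intensity trend (adjusted p = 0.401). Over all 15 alternatives adjusted p ran from 0.0081 to 0.455.

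Because TAM67 acts on AP-1, the bases upstream of a start site of these fallen genes are shown, taken from RefSeq on GRCm38.p6. Promoter windows, from 250 bases before to 50 after a start, were found for 10 of the 10 genes, 14 windows in all. They were searched for TGANTCA, where N is any base, and for the related TGACGTCA. TGANTCA is looser than the AP-1 motif, which has C or G in the middle. Each letter string equals its own reverse complement, so a match counts for both strands, and neither string contains the other. Neither was found in the window of Igfbp3 or Igfbp7, and the 250 bases before the start are therefore all in lower case, 5′ to 3′ on the minus strand at chr11:7213924-7214173 for Igfbp3 and at chr5:77408046-77408295 for Igfbp7. The RefSeq span of the Igfbp3 gene, 7206086 to 7215498, reaches beyond this start, so the window lies at a start inside the annotated gene.
Igfbp3: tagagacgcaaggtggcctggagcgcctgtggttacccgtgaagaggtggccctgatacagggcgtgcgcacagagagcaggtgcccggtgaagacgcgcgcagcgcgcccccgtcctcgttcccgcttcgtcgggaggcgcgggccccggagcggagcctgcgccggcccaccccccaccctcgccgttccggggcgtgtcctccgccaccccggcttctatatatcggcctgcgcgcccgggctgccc
Igfbp7: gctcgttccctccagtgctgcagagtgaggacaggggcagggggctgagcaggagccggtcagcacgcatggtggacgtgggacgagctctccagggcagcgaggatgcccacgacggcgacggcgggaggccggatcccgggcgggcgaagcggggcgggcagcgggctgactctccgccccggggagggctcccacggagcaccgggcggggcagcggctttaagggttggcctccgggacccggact

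TGANTCA was present in 2 of the 14 windows, against 7.81% of 32851 windows of the same length over all genes. TGACGTCA was present in 0 of the 14 and in 1.79% of all. The matches lay 37 bases before a start of Igf1 and 39 bases before a start of Igfbp2, both inside the annotated genes and on the plus strand. They are shown with the motif in capitals, at chr10:87861063-87861091 and chr1:72825337-72825365. The Igfbp2 match, TGAGTCA, has the middle G of the AP-1 motif, while the Igf1 match, TGAATCA, has A there and is not that motif. The share of 7.81% likewise counts any middle base. A match describes these letters and not a bound site, and the windows are short.
Igf1: gagctggaactTGAATCActattctggat
Igfbp2: gaaacaaaactTGAGTCAgtgaccaccgg

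Igfbp4, which encodes an inhibitory binding protein cleaved by the protease PAPP-A, was read by 6 probe sets, and in 6 of 6 both Eph_EN_DN tumours were below both Eph_EN tumours. Over all probe sets but controls the same was true of 15.9%. The 6 are annotated to the same gene and are not independent of each other. The brightest, 1437405_a_at, read 460 and 598 units in Eph_EN and 319 and 383 in Eph_EN_DN tumours. Its difference of -0.56 ± 0.22 did not pass the threshold (SE, adjusted p = 0.402, limma), and 4.30% of all genes tested had a difference at least as far below 0. The 6 differences ran from -0.65 to -0.42. The dimmest probe set, 1421991_a_at, read 66.6 and 56.2 against 42.2 and 26.7 units.

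Igfbp6 and Igfbp2 were read by 1 probe set each, and neither passed the test. Igfbp6, whose protein prefers IGF-II, read 88.1 and 86.5 units in Eph_EN and 61.2 and 67.5 in Eph_EN_DN tumours. The groups did not overlap, and the difference was -0.36 ± 0.22 (SE, adjusted p = 0.626, limma) with a 95% interval of -0.82 to 0.095. Igfbp2, whose protein also carries an integrin-binding sequence, read 56.9 and 47.0 against 46.0 and 18.3 units. Its groups were apart by about 1 unit, since Eph_EN_DN tumour 1 lay close to Eph_EN tumour 2. The difference was -0.55 ± 0.34 (SE, adjusted p = 0.639, limma), or -0.13 without Eph_EN_DN tumour 2 and -0.98 without Eph_EN_DN tumour 1.

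Igfbp5, the binding protein of mammary involution, was the member of the family whose groups overlapped. Its probe set 1422313_a_at read 123 and 54.1 units in Eph_EN and 113 and 93.8 in Eph_EN_DN tumours. The spread within Eph_EN spanned the whole Eph_EN_DN range, and the difference was 0.27 ± 0.27 (SE, 95% interval -0.31 to 0.84, adjusted p = 0.7999, limma). It was -0.23 without Eph_EN tumour 2 and 0.76 without Eph_EN tumour 1. The second probe set, 1452114_s_at, read 31.9 and 21.6 against 37.5 and 17.98 units, near or below the array medians, and differed by 0.0054.

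**Figure D2:**
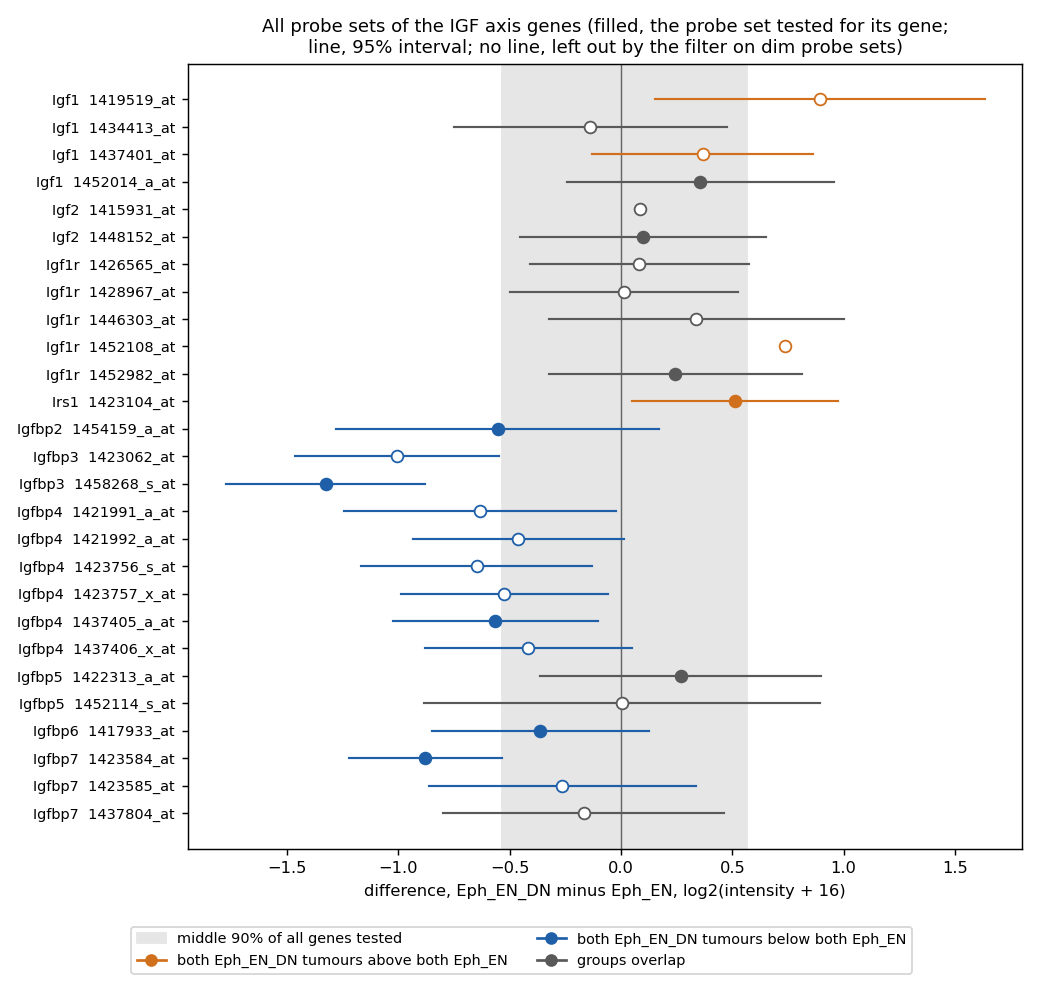
Difference between the groups (horizontal axis, log2 scale) for each of the 27 probe sets of the 10 genes; lines are 95% intervals from limma on every kept probe set, and filled points are the probe sets tested for their genes. Of 15 binding protein probe sets, 12 have both Eph_EN_DN tumours below both Eph_EN tumours and 0 have them above. Of all kept probe sets, 18.2% have them below and 21.6% above.

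Over the whole family, 12 of 15 binding protein probe sets had both Eph_EN_DN tumours below both Eph_EN tumours, 6 of them of Igfbp4. This was so of 18.2% of the kept probe sets. With quantile normalization the count was 13 of 15 beside 21.5%, and with median centring 13 of 15 beside 26.4%.

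Irs1 encodes the docking adaptor of the insulin and IGF receptors. Its single probe set read 232 and 298 units in Eph_EN and 399 and 365 in Eph_EN_DN tumours. Both Eph_EN_DN tumours were above both Eph_EN tumours, with a ratio of means of 1.44. The difference of 0.51 ± 0.22 did not pass (SE, adjusted p = 0.450, limma); its 95% interval ran from 0.049 to 0.97, and 6.68% of all genes tested had a difference at least as far above 0. It was between 0.34 and 0.68 under every one of 15 alternatives.

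Igf1r, the receptor kinase, was read by 5 probe sets, and 4 of them overlapped between the groups. The brightest, 1452982_at, read 311 and 494 units in Eph_EN and 593 and 368 in Eph_EN_DN tumours, so that the tumours of both groups interleaved. The difference was 0.24 ± 0.26 (SE, 95% interval -0.31 to 0.80, adjusted p = 0.814, limma). It was -0.076 without Eph_EN tumour 1 and -0.088 without Eph_EN_DN tumour 1. The next brightest, 1426565_at, read 145 and 113 against 127 and 147 units (0.083), and 1428967_at read 89.4 and 107 against 117 and 83.1 (0.013). A dimmer one, 1446303_at, read 26.8 and 51.6 against 44.6 and 60.2 units (0.34). The probe set without overlap, 1452108_at, read 1.34 and 0 against 23.2 and 3.64 units, all below the array medians, and was left out by the filter on dim probe sets.

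Igf1, a ligand made in the gland mainly by stromal cells, had probe sets that did not point one way. The brightest, 1452014_a_at, read 53.1 and 112 units in Eph_EN and 107 and 102 in Eph_EN_DN tumours. Its low value was that of Eph_EN tumour 1 alone, and the difference of 0.36 ± 0.26 (SE, adjusted p = 0.702, limma) was -0.086 without that tumour and 0.80 without Eph_EN tumour 2. In 2 other probe sets both Eph_EN_DN tumours lay above both Eph_EN tumours, as was so of 21.6% of all kept probe sets. Of these 2, 1437401_at read 75.2 and 77.6 against 118 and 89.6 units (0.37). The other, 1419519_at, read 31.9 and 13.9 against 59.1 and 49.8 units (0.89, adjusted p = 0.449 when limma was run on every kept probe set). The fourth, 1434413_at, read 46.0 and 73.8 against 65.3 and 40.4 units and differed by -0.14.

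Igf2, the growth factor of fetal tissue, was read by 2 probe sets, 1 of them dim. Its brighter probe set, 1448152_at, read 79.7 and 50.6 units in Eph_EN and 77.7 and 62.0 in Eph_EN_DN tumours. The groups overlapped, with a difference of 0.099 ± 0.25 (SE, 95% interval -0.42 to 0.62, adjusted p = 0.932, limma). The difference was -0.16 without Eph_EN tumour 2 and -0.034 without Eph_EN_DN tumour 1. The other probe set, 1415931_at, read 11.1 and 21.8 against 15.8 and 20.4 units, below the array medians, and was left out by the filter.

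Of 43 further genes of IGF and insulin signalling, 37 were named on the array and 32 were kept by the filter on dim probe sets. In limma 0 of the 32 were called higher and 0 lower, where 0.420% of all genes were called lower and 0.135% higher. An unadjusted limma p under 0.05 was found in 5 (15.6%), beside 9.80% of all genes. Their differences were negative in 16 and positive in 16, with a median of 8.7e-04 beside 0.019 over all genes. The groups did not overlap in 15, with 10 lower and 5 higher, beside 20.0% and 20.2% of all genes. The largest differences in size were those of Irs4, an adaptor related to IRS1, Pdpk1, the kinase that activates AKT, and Shc1, an adaptor that links receptors to RAS. Irs4 read 112 and 40.96 units in Eph_EN and 136 and 107 in Eph_EN_DN tumours, groups that overlapped (0.68 ± 0.29 SE, adjusted p = 0.458, limma); without Eph_EN tumour 1 it passed the threshold at 1.26 ± 0.27 (adjusted p = 0.00663). Pdpk1 read 345 and 428 against 786 and 450 units (0.61 ± 0.25, adjusted p = 0.434), without overlap but with Eph_EN_DN tumour 1 far above the rest. Shc1 read 360 and 281 against 215 and 204 units (-0.57 ± 0.22, adjusted p = 0.393), also without overlap. The insulin receptor gene Insr was at 0.24 and Igf2r, whose protein clears IGF-II, at -0.011. Pappa, the protease of IGFBP4, was at 0.0099.

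The tested genes whose values over the 4 tumours lay closest to those of Igfbp3, by Euclidean distance of log2 values centred on each gene's mean, were Gnmt (distance 0.15, difference -1.35), the chemokine gene Cxcl12 (0.19, -1.42) and Myo1d (0.20, -1.39). For Igfbp7 they were the integrin gene Itgb5 (0.097, -0.86), the chemokine gene Ccl8 (0.14, -0.98) and Serpinh1, the collagen chaperone (0.15, -0.87). With 4 tumours such likeness mainly repeats the difference between the groups.

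Markers of host and tumour cells were compared in the same tumours. The epithelial genes Krt8 (2048 and 2017 units in Eph_EN, 1596 and 1470 in Eph_EN_DN tumours) and Krt18 were bright in all 4 tumours. Over 7 of 8 epithelial markers kept, the median difference was -0.20, 0 passed limma, and their summed intensity was 3445 to 3714 units in Eph_EN and 2871 to 3038 in Eph_EN_DN tumours. The largest differences of this list were those of Krt14 (0.67) and Krt5 (-0.63). Krt14 read 167 and 149 units in Eph_EN against 157 and 425 in Eph_EN_DN tumours, groups that overlapped. Fibroblast markers (9 of 9 kept) had a median of -0.50, with 7 negative, 0 called and summed levels of 15439 to 21860 against 12807 to 14537 units; Lum was at -1.07 and Thy1 at -0.96. Macrophage markers (8 of 8) had a median of -0.57, with 8 negative, 0 called and sums of 13893 to 17428 against 8905 to 10617; Lyz2 was at -0.88 and C1qb at -0.82.

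Endothelial markers (5 of 8 kept) had a median of -0.48, with 5 negative, 0 called and sums of 548 to 732 against 413 to 474 units, with Cdh5 at -0.74 and Eng at -0.70, while Pecam1, Tek and Tie1 were left out as dim. Pericyte and smooth muscle markers (7 of 8) had a median of -0.058 and 0 called, with sums of 1611 to 1918 against 1399.55 to 1504 units, Pdgfrb at -0.45 and Des at 0.44. Adipocyte markers (5 of 8) had a median of 2.33, with 4 that rose, where 0.135% of all genes were called higher. Their sums were 322 to 533 against 1382 to 5983 units, and Car3 was at 3.36 and Fabp4 at 2.47. In Eph_EN_DN tumours 1 and 2 these levels were uneven, at 591 and 1994 units for Car3 and 559 and 2825 for Fabp4. Of skeletal muscle markers (3 of 7 kept, the others left out as dim) Myh1 rose by 1.39, where 0.135% of all genes were called higher. Acta1 was at 0.19, which was also the list median, and 1 of the 3 was negative. Their sums were 123 to 124 against 226 to 238 units. No marker kept was listed at 0 on any array. For Gapdh, the 3' probe set over the 5' probe set gave 0.938 and 1.04 in Eph_EN against 1.17 and 1.11 in Eph_EN_DN tumours. It gave 1.11 and 1.195 against 1.31 and 1.34 for beta-actin, and 18S rRNA probe sets averaged 5.43 and 6.40 against 6.76 and 7.43 on the log2 scale. The lower fibroblast, macrophage and endothelial lists, the higher adipocyte list and these signs of RNA quality went with the groups in which Igfbp3 and Igfbp7 fell, and their part in that fall was not tested.

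**Figure D3:**
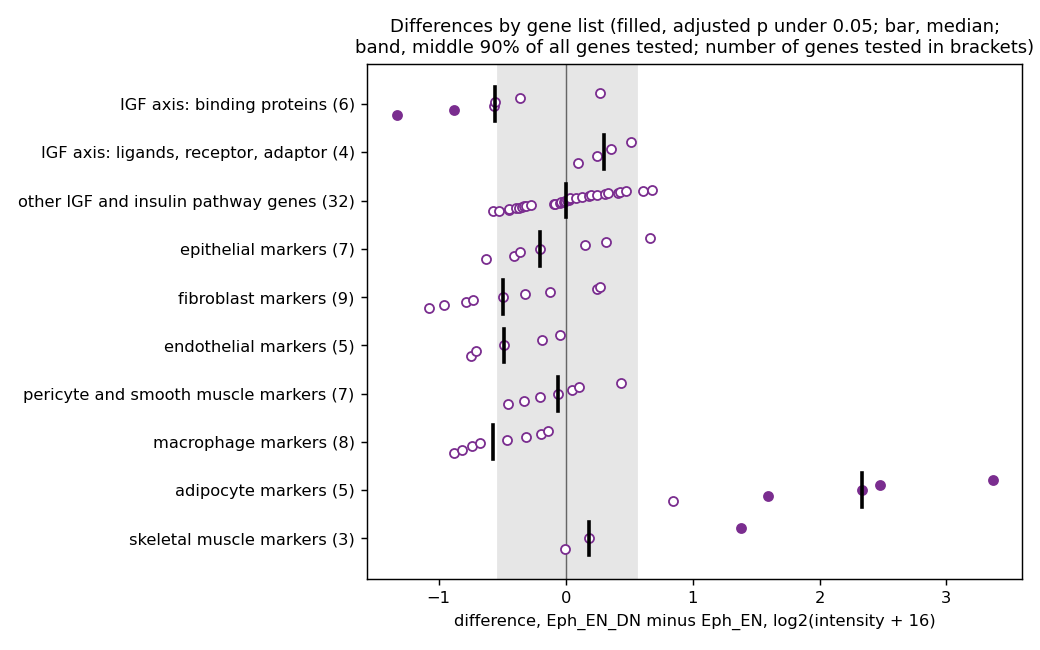
Difference between the groups (horizontal axis, log2 scale) for each tested gene of the 10 IGF axis genes, the 32 other pathway genes and the marker lists; bars are list medians, filled points passed limma's threshold and the band holds the middle 90% of all genes tested. The binding proteins centre at -0.56, beside -0.50 for fibroblast and -0.57 for macrophage markers, and the pathway genes near 0.

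The differences of the called genes kept their sign under each of their 15 alternatives, as did those of Igfbp4, Igfbp6 and Irs1, and of Igfbp2 under the 14 that kept its probe set.

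**Figure D4:**
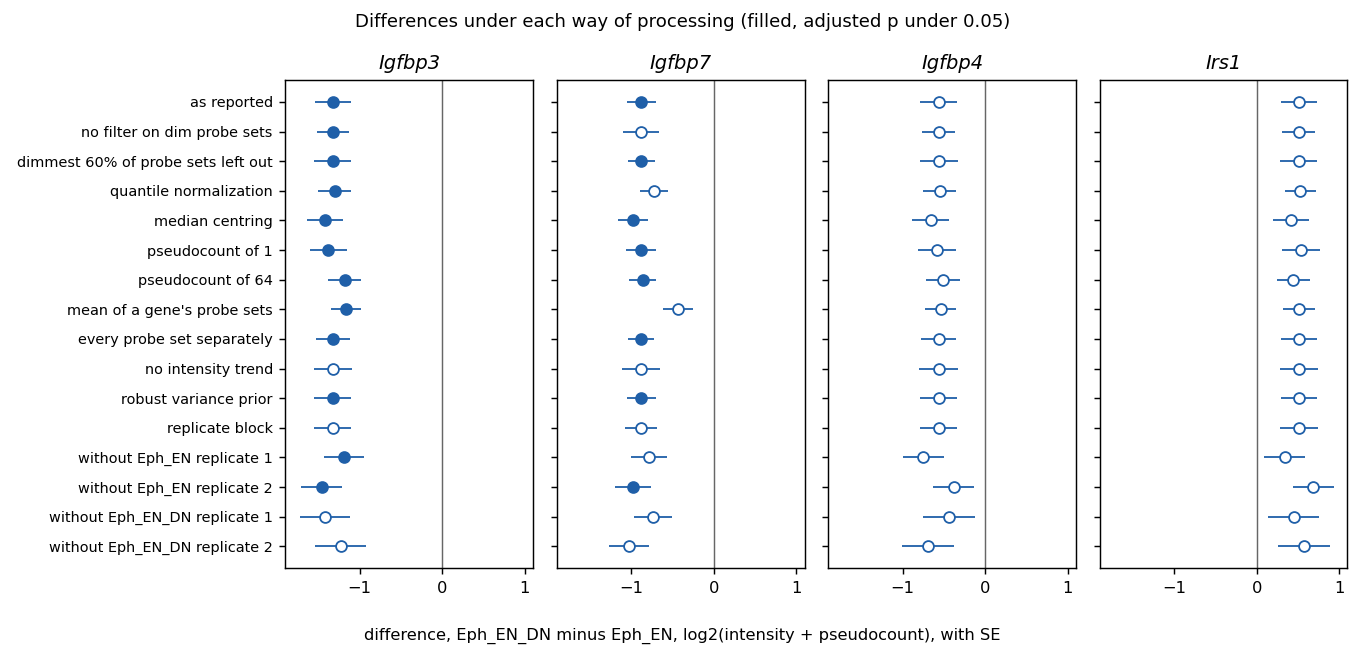
Difference between the groups with its SE (horizontal axis, log2 scale) for Igfbp3, Igfbp7, Igfbp4 and Irs1 under each way of processing (vertical axis); filled points have an adjusted p under 0.05. Igfbp3 lies between -1.46 and -1.17 and Igfbp7 between -1.02 and -0.44, and both lose the call when either Eph_EN_DN tumour is left out.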

How the data were processed

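Total RNA from 4 tumours was labelled with biotin and hybridised to Affymetrix arrays, per the labels' protocols. The deposited values are 1 linear intensity per probe set and array; the authors' probe summary and scaling are not given in the sources used here. No detection calls were used, and precision is limited by having 4 arrays. Since no label ties the tumours to separate animals or cultures, the p-values cover only the spread among these samples, possibly a technical one.

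Control probe sets (64) and the dimmest 40% of the others by mean log2 value were left out, which kept 27022. The log2 of the intensity plus 16 was tested with limma 3.58.1 in R 4.3.3 (eBayes, two-sided, with an intensity trend and Benjamini-Hochberg adjustment), for the brightest probe set of each of 13331 genes, and fold changes of dim genes are understated. Plots used matplotlib 3.10.9. In data simulated for these 13331 genes the fit called 85 of 100 genes changed 2-fold, 100 of 100 changed 4-fold and 16 unchanged genes. The changed genes were all brighter than the median gene, and noise was drawn as normal with limma's fitted variances. These counts therefore do not cover dim genes such as Igfbp2. Left-out arrays were dropped after the filter and the choice of probe sets, and the lone tumour was then assumed to vary like the other group. Probe sets were named from the platform annotation, with symbols updated by Entrez ID from RefSeq.

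The members, pathway genes and markers were chosen with earlier results of these data known. Named genes were all members, the 3 pathway genes with the largest difference and any past the threshold, 2 genes of each marker list by size of difference, and 3 genes of like pattern for each called member. Insr, Igf2r, Pappa, Krt8 and Krt18 were named outside this rule, after their values were seen. Of the 43 pathway genes, 6 had no probe set named with them and were not analysed here. The groups share tumour numbers 1 and 2, which no label describes as a pairing. Alternatives were other filters, scalings, pseudocounts, uses of probe sets and variance models, the replicate block and each array left out. Other thresholds were applied to the counts of called genes only and are not among the 15 alternatives of a single gene.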

Additional observations from a re-analysis of the deposited data

How the results depend on the processing

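With 2 tumours in each group, the counts of called genes moved with most choices. The number of called IGF axis genes, 2 as reported, was 1 at an adjusted p under 0.01, with dim probe sets kept, with quantile normalization or with a gene's probe sets averaged (Igfbp3 each time). It was 0 in limma without the intensity trend, where 3 had an unadjusted p under 0.05, and 0 to 2 when each array was left out in turn. Over all genes the count, 74 as reported, was 17 at an adjusted p under 0.01, 38 with quantile normalization, 35 with probe sets averaged, 5 without the intensity trend and 18 to 195 with an array left out. Of the other pathway genes 0 passed, and 0 to 1 with an array left out (Irs4, without Eph_EN tumour 1). With the tumour number as a replicate block, 0 IGF axis genes and 11 genes in all passed in limma. In that fit 3 IGF axis genes had an unadjusted p under 0.05. Over all genes tested, deviations of equally numbered tumours from their group means correlated at -0.065. With 2 tumours in each group, crossed numbers give the same value with the opposite sign. This value cannot settle whether the numbers mark a pairing. Signs turned with an array left out for 4 genes that passed in none of the fits: Igf1 ran from -0.086 to 0.80, Igf2 from -0.16 to 0.36 (-0.034 without Eph_EN_DN tumour 1), Igf1r from -0.088 to 0.58 (-0.076 without Eph_EN tumour 1) and Igfbp5 from -0.23 to 0.76. Median centring shifted the median of all genes to -0.080. Igfbp2 has no value when the dimmest 60% are left out. The Igfbp3 call was lost in 4 of 15 alternatives and that of Igfbp7 in 8 of 15, the replicate block (adjusted p = 0.0845 and 0.218) among them. Differences of dim probe sets, such as 1415931_at of Igf2 and that of Igfbp2, are limited by signal over background.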
